A study of Mus musculus with 18 samples.

Results

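The ribosome that translates messenger RNA in the cytosol has a large and a small subunit, each a core of ribosomal RNA carrying a set of ribosomal proteins. Most of these proteins are needed in every cell in equal numbers, and their genes are named Rpl for the large and Rps for the small subunit. Their mRNAs are short and abundant, and most begin with a run of pyrimidines, the 5' terminal oligopyrimidine (TOP) motif, through which the kinase mTOR and the protein LARP1 set their translation. Because these mRNAs have been copied back into the genome many times, mouse chromosomes hold many processed pseudogenes that resemble them closely. The genes were taken by symbol: Rpl or Rps followed by a number with the usual suffixes, plus Rpsa, Rplp0, Rplp1 and Rplp2, without symbols marked as pseudogenes by -ps. This matched 87 of the 37224 genes in the count table. Of these, 45 belong to the large subunit, 31 to the small subunit, and 11 have symbols of extra paralogs or numbered copies, such as Rpl39l, Rps4l, Rps3a2 and Rps3a3. The annotation, GENCODE vM21, types 82 of them as protein coding and 5 as pseudogenes, namely Rpl6l, Rps12l1, Rps3a2, Rps3a3 and Rps4l. Rpl24 was not analysed here.

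The study asked what the homeobox transcription factor Hoxb1 does in progenitors made from mouse embryonic stem cells of C57BL/6 background. It holds 18 poly(A) RNA-seq libraries, 3 in each of 6 groups. Neuromesodermal progenitors (NMPs), which can give spinal cord or trunk mesoderm, were either wildtype or Hoxb1 null. Neural progenitors (NPs) were not expressing Hoxb1 or expressing Hoxb1, each without or with SAG, a Smoothened agonist that switches on Hedgehog signalling. All NPs expressing Hoxb1 received doxycycline (DOX) and no other group did, which leaves the effects of Hoxb1 and of doxycycline confounded: they cannot be told apart. The labels give neither the clone of a line nor a SAG dose, and nothing says that the 3 libraries of a group came from separate cultures, so p-values measure the spread between libraries, which may be technical. The library numbers in the labels form 3 separate runs: NMPs, NPs without SAG, and NPs with SAG. A difference between NMPs and NPs, or between NPs with and without SAG, therefore cannot be told apart from a difference between these library sets, whereas each Hoxb1 comparison lies within 1 set.

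Libraries held 13301476 to 26974315 counts, and replicates of 1 group differed by more than counting noise in every group. Hoxb1 was at 241, 272 and 249.99 CPM (counts scaled to a library of 1e+06) in the wild-type NMP libraries and at 14.7, 16.2 and 14.8 in the null libraries, so some reads remained on the gene. It was at most 0.646 CPM in the 6 NP libraries not expressing it, between 305 and 336 CPM in NPs expressing Hoxb1 without SAG, and between 572 and 614 CPM with SAG. Summed NMP markers (T, Sox2, Cdx2, Nkx1-2, Fgf8, Fgf17, Wnt3a and Cyp26a1) averaged 1737 and 1549 CPM in the NMP groups and 407 to 648 CPM in the NP groups. Summed neural progenitor markers averaged 352 and 362 CPM in NMPs and 1090 to 2222 CPM in NPs. All markers on both lists had reads in every group.

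How far a ribosomal protein gene can be measured on its own depends on its copies, so their sequences come first. Of the 87 genes, 84 share at least 1 stretch of 50 bases with a transcript of another gene, and in the median gene only 38.8% of all 50-base stretches are unique. A total of 651 annotated pseudogenes in the table could be assigned to 77 of the 87 genes by shared 50-base stretches. For 59 pairs of a gene and a well-expressed copy, coding sequences were compared, with a median identity of 99.4% and a range of 93.2 to 100%, and 13 copies had no substitution at all. A read that falls between the few differing positions fits gene and copy alike, and no source used here says how the authors assigned such reads. Rps3a1 encodes a small-subunit protein near the exit of the mRNA channel, while Rps3a2 and Rps3a3 are annotated as processed pseudogenes; the 3 are shown because the largest differences between cell types fell on them. The 60 coding bases below are from GENCODE vM21 on GRCm38.p6, Rps3a1 at chr3:86141333-86141392, minus strand, Rps3a2 at chr14:88123549-88123608, minus strand and Rps3a3 at chr13:108670803-108670862, plus strand, with capitals where the 3 differ.
Rps3a1: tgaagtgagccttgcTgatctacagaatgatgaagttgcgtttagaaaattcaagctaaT
Rps3a2: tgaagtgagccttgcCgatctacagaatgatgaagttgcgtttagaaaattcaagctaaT
Rps3a3: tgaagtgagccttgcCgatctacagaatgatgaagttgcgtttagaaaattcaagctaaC
Over the whole coding sequence Rps3a3 carries 8 substitutions against Rps3a1 and Rps3a2 carries 4.

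Rplp0 encodes the base of the ribosomal stalk, the arm that recruits elongation factors, and lies on chromosome 5. Its most abundant copy, Gm8730, differs at 12 of 951 coding bases. The stretch below is Rplp0 at chr5:115561168-115561227, plus strand and Gm8730 at chr8:102865352-102865411, minus strand, with capitals at the differing positions.
Rplp0: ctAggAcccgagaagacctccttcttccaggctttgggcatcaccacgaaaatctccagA
Gm8730: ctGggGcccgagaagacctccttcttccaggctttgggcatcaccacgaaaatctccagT
Rps6, whose protein is the S6 kinase substrate of the small subunit, has a copy, Rps6-ps4, that is identical over all 747 coding bases. Rpl10a and Rpl10a-ps1 are identical over 651 bases, and Rpl12 and Gm10275 over 495.

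A start-site motif was shared by many of the genes. RefSeq start sites on GRCm38.p6 were found for 62 of the 87 genes, with 74 starts in all. An unbroken run of at least 6 pyrimidines within 15 bases of the start was present at 39 of these 74 starts (52.7%), against 29.2% of the 32851 starts in the table. CCGGAAG, the letters bound by ETS-family factors such as GABPA, occurred on either strand of the 300 bases around 36.5% of the starts, against 8.86% of all starts. AAGATGGC, letters of the YY1 site, occurred at 10.8% against 2.75%, and GGGCGG, letters of the Sp1 site, at 60.8% against 35.7%. These shares are descriptions, and a match is not a binding site. Windows of 30 bases centred on the start are shown for genes named below, with the longest pyrimidine run in capitals, for Rpl15 at chr14:18270972-18271001 (minus strand), Rps10 at chr17:27635230-27635259 (minus strand), Rpl31 at chr1:39367836-39367865 (plus strand), Rpl34 at chr3:130730323-130730352 (minus strand), Rplp0 at chr5:115559452-115559481 (plus strand) and Rpl41 at chr10:128549154-128549183 (minus strand).
Rpl15: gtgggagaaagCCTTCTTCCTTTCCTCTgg
Rps10: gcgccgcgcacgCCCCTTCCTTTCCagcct
Rpl31: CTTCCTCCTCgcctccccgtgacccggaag
Rpl34: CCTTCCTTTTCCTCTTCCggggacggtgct
Rplp0: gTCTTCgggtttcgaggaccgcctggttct
Rpl41: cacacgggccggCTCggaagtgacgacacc
In this window Rpl15 has a run of 17 pyrimidines and Rpl41 none longer than 3. Rpl34 has 2 listed starts, the one shown with a run of 18 and another at chr3:130730384-130730413 (minus strand) with a run of 8.

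Together the 87 genes took up a larger share of counts in NMPs than in NPs. The share of all counts was 3.03, 3.06 and 3.04% in the wild-type NMP libraries and 2.86, 2.92 and 3.05% in the null libraries. It was 1.70, 1.69 and 1.73% in NPs, 1.77, 1.84 and 1.85% in NPs expressing Hoxb1, 2.08, 1.99 and 2.02% in NPs with SAG, and 2.18, 2.12 and 2.13% in NPs with both. The NMP groups lay above all NP groups, and the wild-type and null NMP libraries overlapped. Both subunits followed this order, with the large subunit genes at 1.78% in wild-type NMPs and 0.942% in NPs and the small subunit genes at 1.197% and 0.702%. The 651 copies added 0.755% in wild-type NMPs and 0.535% in NPs, the lowest mean of the 6 groups. In bulk RNA, fewer cells of a type and less RNA per cell cannot be told apart.

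**Figure D1:**
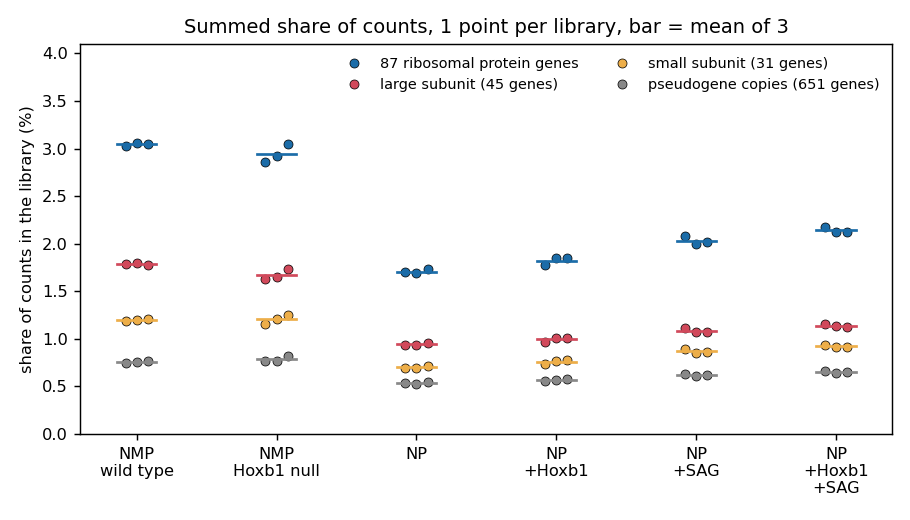
Share of all counts per library (%, vertical axis) by group, 1 point per library and a bar at the mean of 3, for the 87 ribosomal protein genes, the large and small subunit genes, and the 651 pseudogene copies. The 6 NMP libraries sit between 2.86 and 3.06% and the 12 NP libraries between 1.69 and 2.18%.

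Per kilobase of deposited exon length, the scale on which genes can be compared, the highest levels in wild-type NMPs were 2915 CPM per kb for Rplp1, a stalk protein, 2542 for Rpl8, 1954 for Rpl4 and 1892 for Rps15. The same 4 genes led in NPs, with Rpl8 at 1468, Rps15 at 1151, Rpl4 at 1065 and Rplp1 at 1056 CPM per kb. The median gene stood at 189 CPM in wild-type NMPs, 182 CPM in null NMPs, 84.7 CPM in NPs, 96.1 CPM in NPs expressing Hoxb1, 113 CPM in NPs with SAG and 119.8 CPM in NPs with both. Of the 85 genes with enough reads to be tested over all 18 libraries, 73 had their highest mean in an NMP group and 73 their lowest in an NP group without SAG. The ratio of the highest to the lowest group mean had a median of 2.03 (quartiles 1.73 and 2.80), exceeded 2 in 45 genes and exceeded 5 in 12. Shares of all genes are not given here for these counts, so they have no background beside them.

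Some genes of proteins needed in every ribosome carried few reads of their own. Rps6 was at only 10.8 ± 0.212 CPM in wild-type NMPs and 3.503 ± 0.258 CPM in NPs (SD, n = 3), while its identical copy Rps6-ps4 was at 128 ± 2.09 and 101 ± 5.17 CPM. Of all reads on Rps6 and its copies, 7.51% were counted on Rps6 itself in wild-type NMPs and 3.23% in NPs. Rps13 held 3.31% of its family's reads in NPs. Fewer than 50% of family reads lay on the gene itself for 22 of the 77 genes with copies in each NMP group and 25 in each NP group. For this reason each comparison was also run on counts summed over a gene and its copies, an alternative chosen after seeing the data. Copies that themselves belong to the gene set, such as Rps3a2 and Rps3a3, were not added to another gene.

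Ribosomal protein genes were higher in wild-type NMPs than in untreated NPs almost throughout. Of 85 tested genes, 76 were called higher in NMPs by edgeR's quasi-likelihood test at an adjusted p under 0.05, against 42.3% of all 16761 genes, and 5 were called lower, against 43.7%. The median log2 difference was 0.91, with that of all genes at -0.019, and 40 genes were at least 2-fold higher. All genes also differed widely, with quartiles of -1.02 and 0.74. Their share at least 2-fold higher is not given here. All 31 small subunit genes and 41 of the 45 large subunit genes were called higher. With copies summed, 78 of 86 families were higher and 4 lower, with a median of 0.82. In these counts Rps3a1, Rps3a2 and Rps3a3 stayed separate families. Cell type and library set cannot be told apart here. Exon length moved with this comparison: among all genes tested, the shortest quartile class had a median of 0.36 and the longest one of -0.31, and with a length offset the median of the ribosomal protein genes was 0.78.

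The ubiquitous subunits differed by moderate amounts. Rplp1 averaged 1443 ± 47.1 CPM in NMPs and 523 ± 8.42 CPM in NPs (log2 change 1.46, SE 0.038, adjusted p = 6.61e-34), and its partner Rplp2 768 ± 30.4 and 291 ± 15.2 CPM (log2 change 1.399, SE 0.042, adjusted p = 8.82e-28). Rpsa, the laminin receptor precursor of the small subunit, was higher by 1.03 on the log2 scale and Rps19, mutated in Diamond-Blackfan anaemia, by 0.56. Among the genes of the 5S particle, which binds Mdm2 when assembly fails, Rpl11 was higher by 1.41 and Rpl5 by 0.38. Rps20 was higher by 0.84 and Rps7, like Rps19 mutated in Diamond-Blackfan anaemia, by 1.32. Rpl38, needed for correct axial patterning in mice, was at 2.68, 3.41 and 3.66 CPM in NMPs and 3.07, 2.23 and 2.17 CPM in NPs. This difference did not pass the test (log2 0.40, adjusted p = 0.0628), although it did without wild-type NMP replicate 1 (0.51) or NP replicate 1 (0.58). Of all reads on Rpl38 and its copies, only 3.63% in NMPs and 3.71% in NPs lay on Rpl38 itself. For Rps7 these shares were 2.70% and 1.42%, so the values of both genes rest on a small part of their family reads.

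The largest differences between NMPs and NPs fell on genes with close copies. As 77 of the 87 genes have annotated copies, this alone does not set them apart. The median log2 change was 1.05 for 51 genes with under 50% unique stretches and 0.82 for the other 34. Rps3a1 was at 271, 281 and 275 CPM in wild-type NMPs and at 4.56, 4.31 and 2.804 CPM in NPs (log2 change 6.15, SE 0.077, adjusted p = 1.33e-47). Rps3a3 went the other way, from 19.6, 22.6 and 20.3 CPM in NMPs to 285, 277 and 287 CPM in NPs (log2 change -3.76, SE 0.052, adjusted p = 1.63e-47). The 2 gene levels were thus exchanged between the groups, with no overlap of libraries in either gene. Rps3a2 had 28.7, 25.4 and 34.2 CPM in NMPs and 1, 0 and 1 reads in the NP libraries. The sum of the 3 was 319, 329 and 329.8 CPM in wild-type NMPs, 316, 329 and 307 in null NMPs, 289.9, 281 and 290.2 in NPs, 308, 306 and 326 in NPs expressing Hoxb1, 299, 282 and 293 in NPs with SAG and 342, 316 and 329 in NPs with both. The summed level therefore moved far less between groups than either gene did, as the plot of Rplp0 and Rps3a levels shows.

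**Figure D2:**
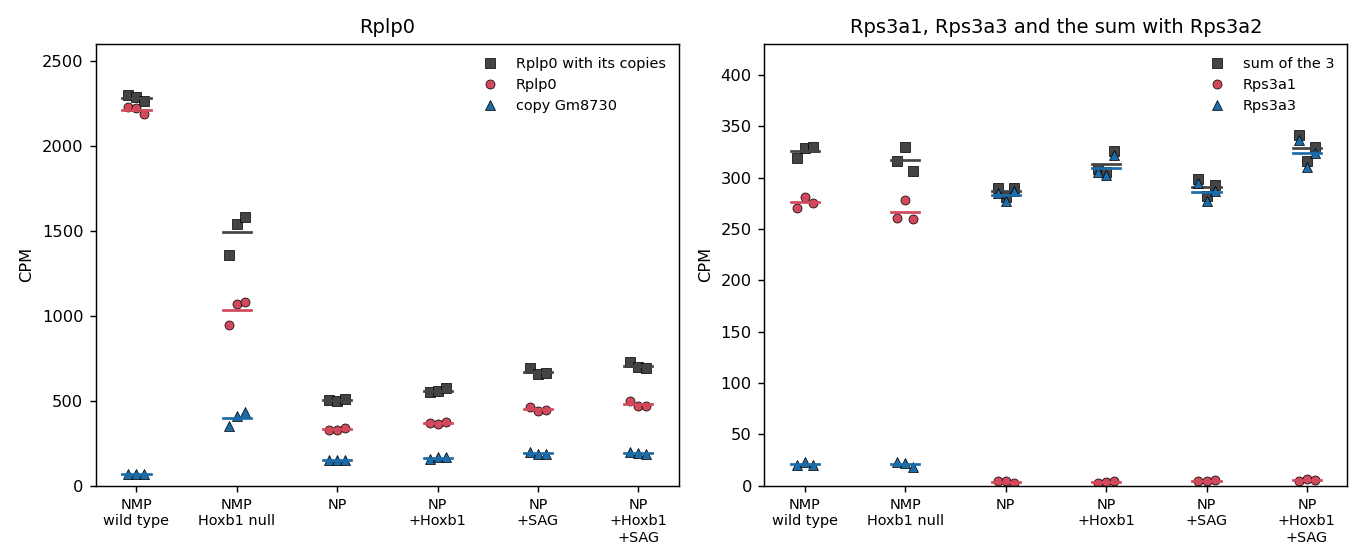
Levels in CPM (vertical axes) by group, 1 point per library and a bar at the mean. Left, Rplp0, its copy Gm8730, and Rplp0 with its copies summed; right, Rps3a1, Rps3a3, and the sum of both with Rps3a2. Rps3a1 and Rps3a3 exchange places between NMPs and NPs while their sum stays between 281 and 342 CPM.

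Other genes with a large excess in NMPs kept part of it when copies were added. Rpl29 was at 98.2, 103 and 106 CPM in NMPs and 0.57, 0.79 and 1.19 CPM in NPs (log2 change 6.898), and with its copies the means were 112 and 7.45 CPM (log2 change 3.92). Rpl34 was at 232, 239 and 239.8 CPM against 6.06, 5.96 and 6.098 CPM, a log2 change of 5.29, or 4.51 with copies. Rpl3, part of the peptidyl transferase centre, was at 270.5, 285 and 288 CPM against 10.3, 9.55 and 8.41 CPM. Its copy Rpl3-ps1 stood at 114 CPM in NMPs and 73.1 CPM in NPs, so that 70.6% of family reads lay on Rpl3 in NMPs and 11.1% in NPs. The log2 change of Rpl3 was 4.902 on its own and 2.25 with copies. Rpl30 was at 357 and 15.2 CPM (log2 change 4.55, or 3.99 with copies). Rplp0 was at 2213 and 331 CPM (2.74, or 2.19 with copies). For Rps6, adding copies lowered the log2 change from 1.62 to 0.41. All of these stayed called higher in NMPs with copies summed. In the plot of changes with and without copies these genes lie below the diagonal.

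**Figure D3:**
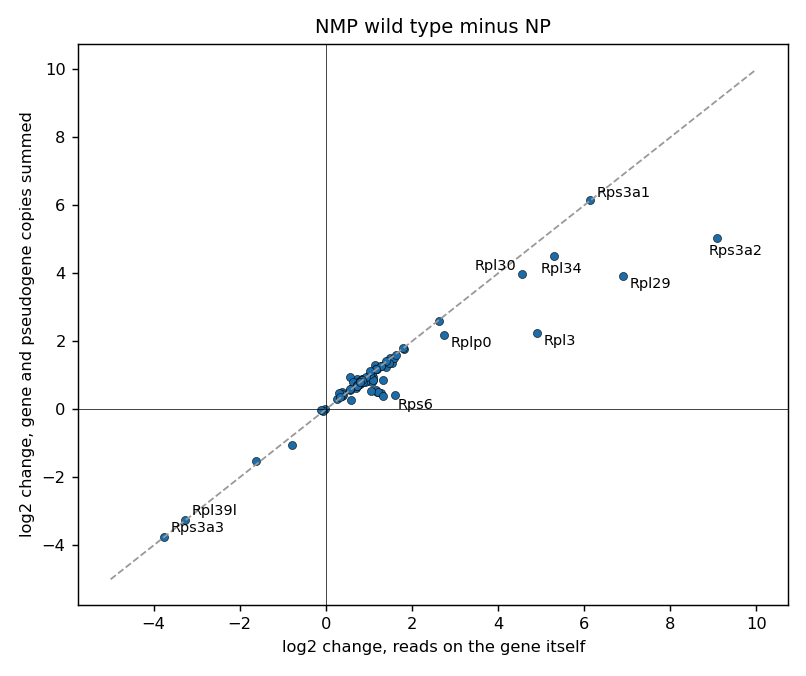
Log2 change between wild-type NMPs and NPs for each ribosomal protein gene, from reads on the gene itself (horizontal axis) and from reads summed over the gene and its pseudogene copies (vertical axis), with the diagonal dashed. Most genes lie near the diagonal, while Rpl3, Rpl29, Rps3a2 and Rps6 have smaller changes once copies are summed.

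Only Rps3a3, Rpl10l, Rpl39l, Rpl15 and Rpl26 were called lower in NMPs. With copies summed, Rpl26 was no longer called (log2 -0.027, adjusted p = 0.5, edgeR), and the log2 change of Rpl15 was -1.04. Rpl15, a large subunit protein mutated in some Diamond-Blackfan anaemia families, was at 65.02, 68.3 and 68.1 CPM in NMPs and 115, 111 and 119 CPM in NPs (log2 change -0.78, SE 0.047, adjusted p = 1.54e-20), with no overlap of the libraries. Rpl10l, an autosomal copy of the X-linked Rpl10 known from the male germ line, was at 0.393, 0.361 and 0.349 CPM in NMPs and 1.14, 1.51 and 0.771 CPM in NPs (log2 change -1.62, SE 0.38, adjusted p = 0.000121). Rpl39l, another germ-line paralog, had 3, 0 and 0 reads in the wild-type NMP libraries and 0.642, 0.646 and 0.561 CPM in NPs (adjusted p = 2.56e-05 by edgeR). Their partners were higher in NMPs, Rpl10 at 43.3 against 15.3 CPM and Rpl39 at 151 against 89.95 CPM. The paralogs Rpl7l1 (log2 change 1.06) and Rps27l (1.02) were higher in NMPs, as were Rpl7 (0.75) and Rps27 (1.22). Rps27 averaged only 3.50 CPM in NMPs and 1.49 CPM in NPs. The related gene Rps27rt, which is not among the summed copies, averaged 125 and 85.9 CPM. Rpl22l1 was at 92.8 ± 1.54 and 93.3 ± 6.91 CPM (log2 -0.0081, adjusted p = 0.9), whereas its partner Rpl22 was higher by 0.85. With the length offset, the log2 change was -0.52 for Rpl22l1 (adjusted p = 3.52e-10, edgeR) and 0.84 for Rpl22. Rpl3l, the striated-muscle form of Rpl3, was below the filter in every fit, with group means of at most 0.236 CPM.

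Genes that build ribosomes showed the same direction between NMPs and NPs. On a list of 36 genes for ribosome assembly and rRNA processing, all 36 were higher in NMPs (median log2 change 1.36), led by Nop2, an rRNA methyltransferase (2.14, adjusted p = 2.13e-41), and Fbl, fibrillarin (2.11, adjusted p = 2.52e-32). Of 11 genes for RNA polymerase I and its factors, 10 were higher and 1 lower, with Polr1b at 2.02, adjusted p = 2.75e-36. Of 15 genes for elongation factors and other TOP mRNAs, 14 were higher and none lower, with Pabpc1 at 1.51, adjusted p = 1.28e-40. Mitochondrial ribosomal protein genes were higher in 56 and lower in 9 of 76. Myc, a driver of ribosome production, was at 79.4 CPM in NMPs and 17.1 CPM in NPs (log2 change 2.22, adjusted p = 4e-35). Ribosomal proteins outside the symbol rule were also higher, with Fau at 1.02, adjusted p = 4.94e-08, Rpl36al at 1.27, adjusted p = 4.01e-25 and Rack1 at 0.18, adjusted p = 8.88e-06. These adjusted p-values are from the same edgeR fit.

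Between wild-type and Hoxb1 null NMPs few ribosomal protein genes passed the test, and Rplp0 was much lower in the null. The labels name no clone for either genotype, so Hoxb1 genotype and a difference between lines cannot be told apart. Of 84 tested genes, 4 were called higher in the null, against 14.9% of all 15032 genes, and 5 lower, against 13.9%. The median log2 change was -0.013. Rplp0 stood at 2229, 2221 and 2190.3 CPM in the wild-type libraries and at 947, 1069 and 1084 CPM in the null libraries (log2 change -1.102, SE 0.041, adjusted p = 5.39e-15). The groups did not overlap, and the other stalk genes Rplp1 (log2 0.072, adjusted p = 0.168) and Rplp2 (-0.071, adjusted p = 0.227) did not pass the edgeR test. Leaving out null replicate 2 brought Rplp1 past it (0.12), and leaving out null replicate 3 did so for Rplp2 (-0.13). The copy Gm8730 stood at 68.9, 65.9 and 67.97 CPM in the wild type and 353, 407 and 435 CPM in the null, with no overlap, and the copies Gm14165 and Rplp0-ps1 stood at 1.76 and 1.08 CPM in the wild type and at 40.4 and 22.9 CPM in the null. Rplp0 with its copies summed was at 2300.1, 2289.5 and 2262 CPM in the wild type and 1360.4, 1541 and 1584 CPM in the null (log2 change -0.61, SE 0.043, adjusted p = 1.11e-09). Summing the copies thus left a smaller fall that was still called. The share of family reads on Rplp0 itself was 96.9% in wild-type NMPs, 69.1% in null NMPs and 65.5 to 67.8% in the NP groups, so the wild-type NMP libraries stood apart from all others.

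The other called changes in the null were small, apart from that of the sparsely read Rpl10l. Rpl10l was higher, at 1.51, 1.45 and 1.29 CPM in the null against 0.393, 0.361 and 0.349 CPM (log2 change 1.93, SE 0.31, adjusted p = 6.75e-05), and Rps4l, a transcribed copy of Rps4x, was at 169.6, 169 and 203 against 156, 155 and 143 CPM (log2 change 0.25, SE 0.061, adjusted p = 0.00562). Rps2 rose by 0.18 and Rpl27 by 0.20 on the log2 scale, the latter with an adjusted p of 0.0255 that rose above the threshold without null replicate 3 (log2 change 0.12), wild-type replicate 2 (0.18) or wild-type replicate 3 (0.16). Rpl41, which encodes the shortest ribosomal protein, fell by 0.18, Rps28 fell by 0.14, Rps21 fell by 0.13 and Rps10 fell by 0.13. The Rps28 call was lost without wild-type replicate 2 (log2 change -0.12) or 3 (-0.13). A single library weighed on the count. Null replicate 3 had the highest share of ribosomal protein reads of its group. Without it 20 genes were called lower, while without wild-type replicate 2 or 3 only 2 were. Shares of all genes called in these fits are not given here, so whether other genes shifted likewise is not shown. Of the 36 ribosome assembly genes, 13 were higher in the null and none lower, with Rrp12 at 0.21, adjusted p = 0.00081 and Wdr43 at 0.18, adjusted p = 0.000637 by edgeR. Summed pluripotency markers were at 407 to 434 CPM in the wild type and 544 to 596 CPM in the null libraries, and their part in these changes was not tested.

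**Figure D4:**
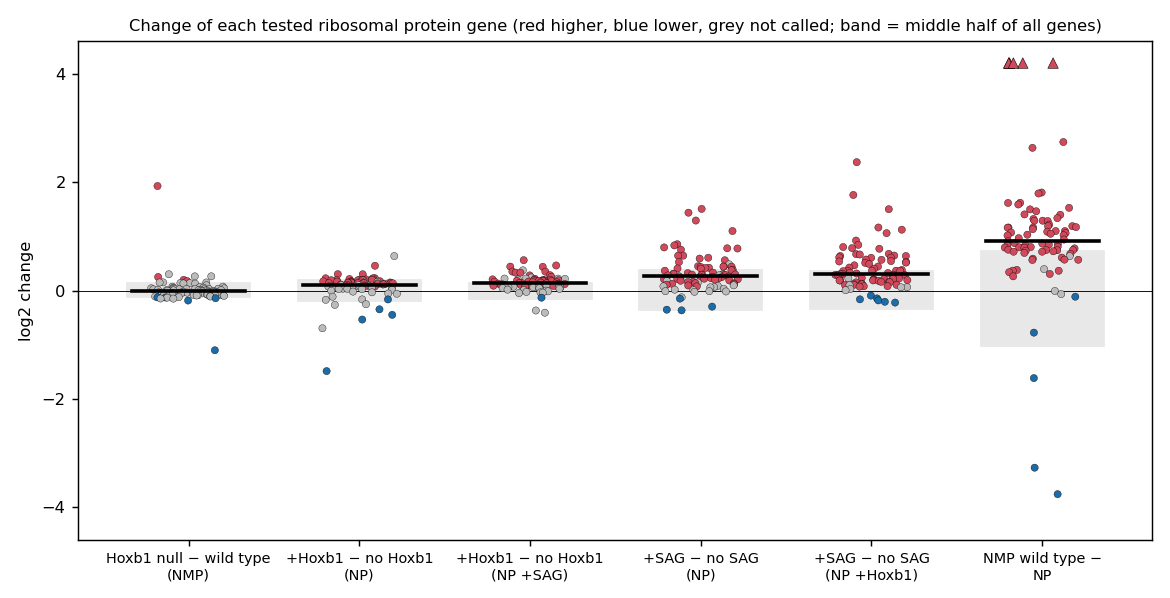
Log2 change (vertical axis) of each tested ribosomal protein gene in 6 comparisons, 1 point per gene, red for called higher, blue for called lower and grey for not called, with a bar at the median and a grey band from the lower to the upper quartile of all genes. Triangles mark genes beyond the axis in the NMP and NP comparison. The medians stand at -0.013, 0.11, 0.13, 0.26, 0.31 and 0.91 from left to right.

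Expression of Hoxb1 in NPs went with slightly higher ribosomal protein mRNA. Without SAG, 41 of 84 tested genes were called higher, against 24.1% of all 16238 genes, and 5 lower, against 22.1%, with a median log2 change of 0.11. The quartiles of all genes were -0.19 and 0.19. Of 41 genes with at least 100 CPM in a group compared, 32 were higher and 1 lower. Of the 43 below that level, 9 were higher (20.9%) and 4 lower. Shares of all genes at these levels are not given here. Of the small subunit genes, 20 of 31 were higher and none lower, and of the large subunit genes 20 of 45 were higher and 2 lower. Of the 8 paralogs tested, 1 was higher and 3 were lower. No gene was 2-fold higher. With copies summed the counts were 43 higher and 5 lower of 86.

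The largest called rise without SAG was that of Rpl31, a protein of the exit tunnel rim, from 14.3, 15.4 and 16.3 CPM in the NP libraries to 20.5, 22.3 and 20.1 CPM in those expressing Hoxb1 (log2 change 0.46, SE 0.079, adjusted p = 5.27e-06), with no overlap. With its copies summed the change was 0.20, adjusted p = 5.56e-05 by edgeR. Rpl41 was at 414, 390.1 and 402 CPM in the first group and 471, 514 and 494 CPM in the second (log2 change 0.30, SE 0.044, adjusted p = 8.17e-06), and Rpl37a at 124, 122 and 123 CPM and 143, 155 and 154 CPM (log2 change 0.30, SE 0.039, adjusted p = 2.18e-08). Both separated the groups fully. Among members with known roles or phenotypes, Rplp0 (0.17), Rps19 (0.19), Rps25 (0.20), Rps20 (0.14), Rpl7 (0.17), Rpl22 (0.14) and Rps4x (0.15) rose by similar small amounts on the log2 scale. Rplp2 (log2 0.037, adjusted p = 0.411), Rpl11 (0.11, adjusted p = 0.407) and Rps6 (0.025, adjusted p = 0.92) did not pass the edgeR test. With copies summed, Rpl11 was called higher (0.27, adjusted p = 1.98e-06, edgeR). Rplp2 (0.030, adjusted p = 0.525) and Rps6 (0.075, adjusted p = 0.115) still did not pass that test.

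The genes that fell without SAG were Rpl10l, Rps4l, Rpl10a, Rpl12 and Rpl7l1. Rps4l was at 43.8, 43.7 and 43.9 CPM in NPs and 28.3, 30.6 and 31.2 CPM in NPs expressing Hoxb1 (log2 change -0.54, SE 0.059, adjusted p = 3.95e-10), while Rps4x rose. Rpl10l stood at 1.14, 1.51 and 0.771 CPM and 0.409, 0.519 and 0.277 CPM (log2 change -1.49, SE 0.4, adjusted p = 0.00218), both low levels. Rpl7l1, a nucleolar relative of Rpl7 that acts in ribosome assembly, averaged 119 ± 4.86 CPM in NPs and 105 ± 0.823 CPM in NPs expressing Hoxb1 (log2 change -0.16, SE 0.039, adjusted p = 0.000599), while Rpl7 rose. Rpl10a, a large subunit protein linked to selective translation, stood at 63.3, 67.9 and 65.8 CPM in NPs and 48.1, 49.4 and 45.98 CPM in NPs expressing Hoxb1 (log2 change -0.45, SE 0.094, adjusted p = 0.0019), and Rpl12, at the stalk base, stood at 50.04, 55.4 and 56.8 CPM and 41.2, 44.9 and 40.8 CPM (log2 change -0.35, SE 0.069, adjusted p = 0.000185). Of their identical copies, Rpl10a-ps1 averaged 71.2 and 71.5 CPM and Gm10275 135 and 134 CPM in the same groups. With copies summed, the changes were -0.20, adjusted p = 6.47e-05 for Rpl10a and -0.094, adjusted p = 0.0211 for Rpl12, both still called by edgeR.

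Other parts of the translation machinery did not all go the same way without SAG. Of the 36 ribosome assembly genes, 21 fell with Hoxb1 and none rose (median log2 change -0.16), among them Wdr43 (-0.55, adjusted p = 2.89e-15) and Rrp12 (-0.40, adjusted p = 6.24e-08). Of the 15 elongation and TOP genes, 10 rose and none fell, with Eif4b at 0.31, adjusted p = 1.83e-11 and Eif3l at 0.24, adjusted p = 1.01e-07. Of the 15 genes for initiation and mTOR control, 2 rose and 8 fell. Eif4ebp1, an inhibitor of cap-dependent initiation, was at 184 CPM in NPs and 68.8 CPM in NPs expressing Hoxb1 (-1.41, adjusted p = 1.59e-29). Rack1, a small subunit protein outside the symbol rule, rose by 0.10 (adjusted p = 0.00422), while Fau did not pass the test. All these p-values are from edgeR. Summed neuron markers were at 1337 to 1413 CPM in NPs and 1846 to 1946 CPM in NPs expressing Hoxb1, and mesenchyme markers at 400.3 to 429 and 922 to 946 CPM; their part in these changes was not tested.

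With SAG present, ribosomal protein genes were again higher with Hoxb1. There, 48 of 84 genes were higher, against 21.4% of all genes, and 1 lower, against 21.9%, with a median log2 change of 0.13. The quartiles of all genes were -0.15 and 0.13. Of 48 genes with at least 100 CPM in a group compared, 31 were higher and 0 lower. Of the 36 below that level, 17 were higher and 1 lower. No large or small subunit gene was called lower, while 28 of 45 and 18 of 31 were higher. The 30 genes called higher in both settings made up 73.2% of those called without SAG, beside 57.1% of all 84 called with it. They made up 62.5% of those called with SAG, beside 48.8% of all 84 called without it. These comparisons share no library, and the overlap was not tested. Rpl34 stood at 5.64, 5.43 and 5.54 CPM without Hoxb1 and 7.74, 9.07 and 7.55 CPM with it (log2 change 0.56, SE 0.097, adjusted p = 6.65e-06). Rpl10 averaged 16.3 ± 0.46 and 22.03 ± 3.67 CPM (log2 change 0.44, SE 0.081, adjusted p = 5.97e-05), and Rpl11 13.5 ± 0.766 and 18.1 ± 2.21 CPM (log2 change 0.44, SE 0.077, adjusted p = 1.07e-05). Rps13 was at 3.35, 4.31 and 3.897 CPM in NPs with SAG and 5.15, 5.86 and 4.94 CPM in NPs with both (log2 change 0.46, SE 0.13, adjusted p = 0.00396). With copies summed, Rps13 rose by 0.097, Rpl11 by 0.16, Rpl34 by 0.25 and Rpl10 by 0.43. Rps19 rose by 0.18 and Rps25 by 0.13. Rplp0 rose by 0.098, a call that was lost without NPs with SAG replicate 2 (0.074) or 3 (0.085) or NPs with both replicate 1 (0.069). The only gene called lower was Rps4l, at 101, 90.3 and 90.1 and 86.97, 85.6 and 82.9 CPM (log2 change -0.13, SE 0.04, adjusted p = 0.00614), and this call was lost without replicate 1 of NPs with SAG (log2 change -0.084), leaving a count of 0. Of the 36 ribosome assembly genes, 2 rose and 13 fell. Myc stood at 9.74 CPM without and 20.8 CPM with Hoxb1 (1.097, adjusted p = 3.36e-17, edgeR).

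The difference between both Hoxb1 effects was tested next. The effect was higher with SAG than without for 8 of 84 genes, against 16.8% of all genes, and lower for 7, against 18.6%, and the median difference was 0.012. The count of 8 became 13 with the length offset and 14 with the replicate block. Rpl10a turned from a fall to a rise: it was at 50.8, 55.2 and 47.7 CPM in NPs with SAG and 55.5, 70.4 and 66.5 CPM in NPs with both (log2 0.33, adjusted p = 0.0056), against the fall given above without SAG. The difference of the effects was 0.78 (SE 0.12, adjusted p = 0.000358 by edgeR) and 0.36 with copies summed (adjusted p = 3.78e-07). For Rpl12 the difference of the effects was 0.52 (adjusted p = 5.97e-05, edgeR) and 0.20 with copies (adjusted p = 0.000601). The large differences of Rpl34 and Rps13 did not hold when copies were summed. That of Rpl34 was 0.73 on its own and 0.18, adjusted p = 0.209 with copies, and that of Rps13 was 0.72 on its own and -0.04, adjusted p = 0.618 with copies (edgeR). The Rps13 call was also lost without NP replicate 1 (0.501) or 2 (0.64), NPs expressing Hoxb1 replicate 3 (0.67), NPs with SAG replicate 1 (0.63) or NPs with both replicate 2 (0.64).

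In the other direction, Rpl41 rose with Hoxb1 without SAG but stood at 568, 497 and 499 and 529.8, 544 and 532 CPM with it, a difference of effects of -0.26 (adjusted p = 0.00217, edgeR). The Hoxb1 effect on Rpl41 with SAG was not called (log2 0.045, adjusted p = 0.425, edgeR). It passed the test when 1 library was left out (0.10). Rpl7a was at 204, 207 and 211 CPM in NPs and 237, 239 and 236 CPM in NPs expressing Hoxb1 and was at 224, 199 and 203 and 206, 206 and 205 CPM with SAG (-0.22, adjusted p = 0.000406, edgeR). For Rpl31 the difference was -0.26, adjusted p = 0.0299 by edgeR, and with copies summed it was not called (-0.045, adjusted p = 0.55). That call was also lost without NP replicate 1 (-0.22) or 2 (-0.27), NPs expressing Hoxb1 replicate 2 (-0.22), NPs with SAG replicate 1 (-0.24) or NPs with both replicate 3 (-0.22). Rps4l fell less with SAG than without (0.40, adjusted p = 1.35e-05, edgeR). Of the 36 ribosome assembly genes, 16 had a higher and 4 a lower Hoxb1 effect with SAG, led by Wdr43 (0.47, adjusted p = 1.74e-09) and Nop56 (0.41, adjusted p = 3.92e-08), and of 15 elongation and TOP genes 1 was higher and 6 lower (edgeR). Eif4ebp1 had a difference of 1.03, adjusted p = 1.53e-19 and Myc one of 1.53, adjusted p = 4.58e-15 in the same test.

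NPs with SAG had more ribosomal protein mRNA than NPs without it. Without Hoxb1, 63 of 84 genes were higher with SAG, against 36.5% of all genes, and 4 lower, against 36.3% (median log2 change 0.26). With Hoxb1, 72 were higher, against 36.4%, and 6 lower, against 35.8% (median 0.31). Of the small subunit genes 28 of 31 were higher in each setting and none was lower. SAG and library set cannot be told apart in these comparisons, and gene length moved with them. When all tested genes were cut at the quartiles of exon length, the shortest class, with at most 1979 bases, had a median log2 change of 0.27 without Hoxb1 and 0.26 with it, and the longest length class one of -0.22 and -0.195. Of the 84 ribosomal protein genes, 59 lie in the shortest length class. With an offset for exon length in each library, 35 genes were higher and 21 lower without Hoxb1 (median 0.10), and 48 higher and 17 lower with it (median 0.17). Shares of all genes called under this offset are not given here, so these counts have no background beside them. The Hoxb1 comparisons had no such trend, with medians of 0.019 and 0.0061 for the shortest and longest length class without SAG and 0.0027 and 0.018 with it.

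**Figure D5:**
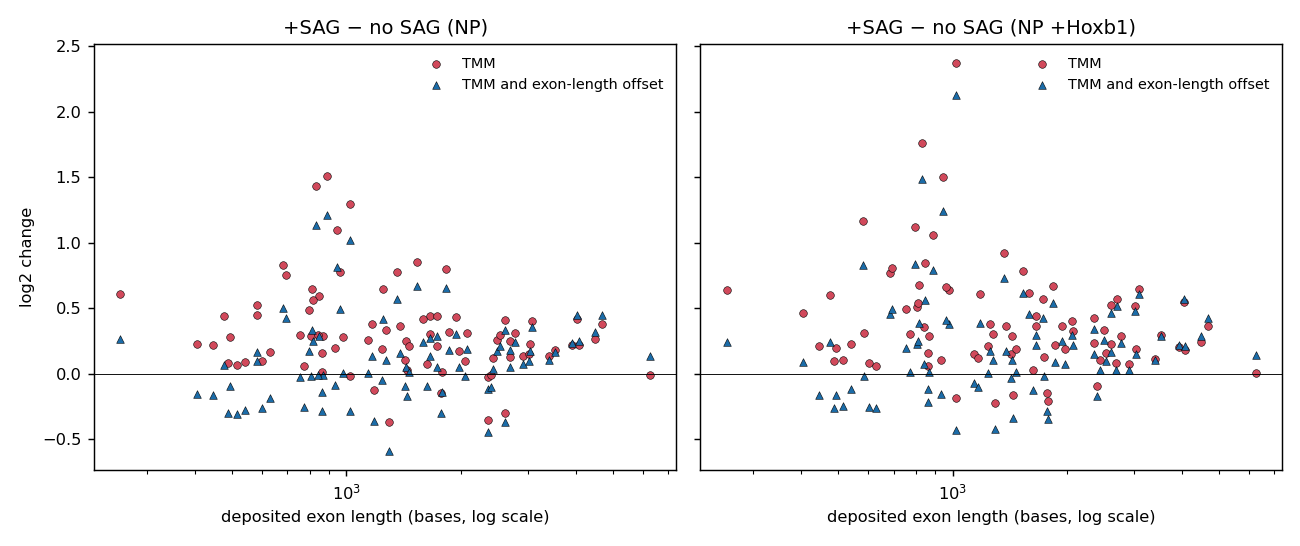
Log2 change with SAG (vertical axis) of each tested ribosomal protein gene against its deposited exon length (bases, log scale), without Hoxb1 (left) and with it (right), under TMM scaling (circles) and with an added exon-length offset (triangles). The offset lowers the changes of the shorter genes most, and the medians drop from 0.26 to 0.10 and from 0.31 to 0.17.

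Some genes were higher with SAG under both scalings. Rps25, a small subunit protein used by viral and cellular internal ribosome entry, was at 74.9, 75.1 and 72.4 CPM in NPs and 133, 129.7 and 133 CPM with SAG (log2 change 0.83, SE 0.04, adjusted p = 1.02e-21, or 0.50 with the length offset). Rps4l was at 101, 90.3 and 90.1 CPM with SAG against the values given above (log2 change 1.099, SE 0.047, adjusted p = 2.36e-23, or 0.81), and at 86.97, 85.6 and 82.9 CPM in NPs with both (log2 change 1.502, or 1.24, against NPs expressing Hoxb1). Rpl3 was at 10.3, 9.55 and 8.41 CPM in NPs and 15.8, 16.9 and 15.5 CPM with SAG (log2 change 0.78, SE 0.12, adjusted p = 2.61e-06, or 0.57), and with copies summed the log2 change was 0.72. Rps2 was at 60.1, 59.3 and 63.7 and 104, 108 and 105 CPM (log2 change 0.80, SE 0.043, adjusted p = 7.49e-20, or 0.65). The 4 genes separated the groups fully. Rps27l rose by 0.56 and Rpl7l1 by 0.41 without Hoxb1, and by 0.68 and 0.53 with it. The largest rises were those of sparsely expressed paralogs, Rpl39l at 0.642, 0.646 and 0.561 CPM in NPs and 1.71, 1.496 and 1.85 CPM in NPs with SAG (log2 change 1.44, SE 0.29, adjusted p = 2.65e-05), Rpl10l at 1.14 and 2.79 CPM (log2 change 1.29, SE 0.23, adjusted p = 4.78e-06) and Rpl6l at 0.544 and 1.56 CPM (log2 change 1.51, SE 0.32, adjusted p = 7.04e-05).

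Genes lower with SAG belonged to the large subunit. Without Hoxb1, Rpl23 was called lower on its own reads (-0.15), with copies summed (-0.15) and with the length offset (-0.30). Rpl10a (-0.35) and Rpl12 (-0.30) were lower with SAG on their own reads, but with copies summed they were higher, by 0.17 and 0.26. In all, 5 genes were called in opposite directions on their own reads and with copies summed without Hoxb1, and 2 with it. The others were Rps7 (0.78 on its own and -0.073 with copies), Rpl23a (0.59 and -0.30) and Rpl36 (0.22 and -0.25) without Hoxb1, and again Rpl23a (0.84 and -0.37) and Rpl36 (0.47 and -0.19) with it. In NPs expressing Hoxb1, Rpl7a fell by 0.21 and Rpl19 fell by 0.18 with SAG. Some directions turned with the length offset: Rplp1 rose by 0.28 without Hoxb1 under TMM alone, but its value was -0.094 with the offset. Mitochondrial ribosomal protein genes were higher with SAG in 56 and lower in 5 of 76 without Hoxb1, and ribosome assembly genes higher in 23 and lower in 5 of 36, with Nop10 at 0.89, adjusted p = 1.05e-18 (edgeR). Mesenchyme markers summed to 400.3 to 429 CPM in NPs and 2052 to 2090 CPM with SAG, and neuron markers to 1337 to 1413 and 833 to 855 CPM; their part in these differences was not tested.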

How the data were processed

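The authors deposited whole-number read counts per gene, with exon lengths, made with featureCounts 1.4.6 after bcl2fastq 1.8.2 on mm10, per the submitters' processing notes. Libraries were strand-specific poly(A) libraries amplified for 15 cycles, per the labels' protocols. The aligner, annotation, strand setting and treatment of reads that match several genes are stated in no source used here.

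Genes were filtered with filterByExpr, scaled by TMM and tested with edgeR 4.0.16 (quasi-likelihood, robust; R 4.3.3), with Benjamini-Hochberg adjustment over all genes tested and calls at an adjusted p under 0.05. Fits held 6 NMP libraries (15032 genes), 12 NP libraries (16238) or all 18 (16761, for NMPs against NPs). SE is the log2 change over the square root of F. Levels are CPM on the TMM scale of all 18 libraries, with factors of 0.916 to 1.07. Depth of 13301476 to 26974315 counts limits precision for genes near 1 CPM. The fits were tested on simulated counts. Pseudogene copies were assigned by shared 50-base stretches of GENCODE vM21 transcripts.

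Alternatives were DESeq2 1.42.0, upper-quartile scaling, total counts, other filters, offsets on abundance and exon length, a replicate block, other sets of libraries, leaving out each library and, added later, summed copies. Members and gene lists were chosen with earlier results of these data known. Named were the 3 called members of largest rise and of largest fall per comparison (mean of 1 CPM or more in 1 of the groups compared), a fixed set of stalk, paralog and phenotype genes with their partners, and up to 2 genes per list and comparison. Rps2, Rps10, Rps21, Rpl4, Rpl8, Rps15, Rpl9, Rpl13, Rpl23, Rpl23a, Rpl26, Rpl30, Rpl36, Rps9 and the copies were named after their values were seen. Some genes that the rule would name are not reported here.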

Additional observations from a re-analysis of the deposited data

Results flagged for a closer look

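For 15 ribosomal protein genes, of which 14 are given here, the effect of Hoxb1 in NPs differed between the settings with and without SAG by the edgeR test of the difference, given here as the log2 effect with SAG minus that without. The effect was more positive with SAG for Rpl10a (0.78), Rpl34 (0.73), Rps13 (0.72), Rpl12 (0.52), Rps4l (0.40), Rpl13 (0.26) and Rpl9 (0.24). It was more negative with SAG for Rps9 (-0.13), Rpl19 (-0.17), Rpl26 (-0.19), Rpl37a (-0.21), Rpl7a (-0.22), Rpl41 (-0.26) and Rpl31 (-0.26). These are 9.52% higher and 8.33% lower of 84 genes tested, beside 16.8% and 18.6% of all genes. With copies summed, 6 families were higher and 7 lower, and 5 of the 15 calls were lost, among them those of Rpl34, Rps13, Rpl31 and Rpl9. SAG and library set cannot be told apart, so the same holds for these differences.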

How the results depend on the processing

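For 45 named genes, 302 values were set beside 5259 alternative values. Of the alternative values, 4951 kept direction and side of the threshold, 170 fell below it, 115 rose past it and 23 changed sign. The cause was not tested unless stated. Shares of all genes called are not given here for these alternatives. In the Hoxb1 null NMPs, 8 genes were higher with the abundance offset, and 10 were lower with summed copies, 12 with no filter and 3 under total counts, against 2 to 20 when 1 library was left out. With Hoxb1 and SAG, 2 genes were lower with no filter, the stricter filter, upper-quartile scaling, total counts or the replicate block, and 0 to 2 without 1 library. The difference of the Hoxb1 effects was higher for 13 genes with the length offset and 14 with the replicate block. Same-numbered libraries did not deviate together in all 3 pairs of any 2 groups, so the numbers were not taken as pairs; the replicate block lost no call of a named gene. With SAG and no Hoxb1 the median was 0.10, 35 genes higher and 21 lower with the length offset, and the median was 0.22 with copies, 0.31 under total counts and 0.31 under upper-quartile scaling. With SAG and Hoxb1 the median was 0.17 and 17 genes lower with the length offset, and the median 0.22 with copies, 0.36 under total counts and 0.35 under upper-quartile scaling. Between NMPs and NPs the median was 0.77 (abundance offset), 0.78 (length offset), 0.82 (copies), 0.76 (total counts, which move the median of all genes to -0.17) and 0.87 to 0.95 without 1 library. Without paralog symbols the shares of counts were 2.98, 1.64, 1.76, 1.95 and 2.06% in wild-type NMPs, NPs, NPs expressing Hoxb1, NPs with SAG and NPs with both.

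Rpl9, Rpl23a and Rpl36 lie outside the 45 genes counted, and with copies summed the difference of effects of Rpl9 was -0.012. Among those 45, signs changed as follows. With the length offset and SAG but no Hoxb1, log2 changes were Rpl22l1 -0.30, Rps4x -0.094, Rplp1 -0.094, Rpl7a -0.14 and Rps3a3 -0.29; with both they were Rpl22l1 -0.26, Rps4x -0.13, Rplp1 -0.16, Rpl41 -0.10, Rpl37a -0.021 and Rps3a3 -0.22. Rpl19 was -0.017 between NMPs and NPs. With summed copies, Rps6 was -0.11 in null NMPs; Rpl38 was 0.11 and Rps13 0.14 with Hoxb1 without SAG, and their differences of effects were -0.17 and -0.040; with SAG and no Hoxb1, Rps27 was -0.040, Rps7 -0.073, Rpl10a 0.17 and Rpl12 0.26; with both, Rps7 was -0.0063 and Rps27a -0.024. Reads shared with copies, low counts of paralogs and library sets limit these values.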
